A study of Mus musculus with 6 samples.

Results

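The genes described here are 7 genes of the cyclin-dependent kinase (CDK) inhibitors, taken from the count table by their symbols: Cdkn1b, Cdkn1c, Cdkn2a, Cdkn2b, Cdkn2c, Cdkn2d and Cdkn3. They were 7 of the 56941 genes in the table. Total RNA of FACS sorted hair follicle stem cells (HFSCs, CD34+/α6-integrin+) from dorsal skin was sequenced. Each label, WT and Dab2-cKO, had 3 biological replicates. The comparison asked how gene expression differed between the genotypes at the second telogen, the resting phase of the hair cycle. The stage is the one the paper gives from histology, and the markers of cell types given below were not alike between the labels. All mice were female, of the strain B6;129S4-Dab2tm1Cpr/J, and of postnatal day (PD) 68. Both genotypes carried Dab2 fl/fl alleles and received tamoxifen at 75 mg per kg body weight for 5 days, and the mice labelled Dab2-cKO in addition carried a K14 Cre that tamoxifen activates. The K14 promoter is active in keratinocytes, so the deletion is directed at these cells. Dab2 was not measured by cell type here.

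CDKs bound to cyclins drive the cell cycle, and the CDK inhibitors hold them back. The CIP/KIP proteins, among them p27 (Cdkn1b) and p57 (Cdkn1c), bind several cyclin-CDK complexes, whereas the INK4 proteins p16 (Cdkn2a), p15 (Cdkn2b), p18 (Cdkn2c) and p19 (Cdkn2d) bind CDK4 and CDK6 and so keep the retinoblastoma protein active. HFSCs rest for most of the hair cycle, and CDK inhibitors are among the proteins that hold stem cells in quiescence.

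Cdkn2a needs its sequence to be read correctly, since it encodes 2 unrelated proteins. The transcripts Cdkn2a-201, which encodes p16INK4a in 504 coding bases, and Cdkn2a-202, which encodes p19ARF in 507 coding bases, start at different first exons (GRCm39 chr4:89200223-89200429 and chr4:89212571-89212890, minus strand) and share exon 2 (chr4:89194882-89195222), which they read in different frames. The first 60 bases of that exon (chr4:89195163-89195222, minus strand) are shown for each transcript, with the first whole codon in capitals.
Cdkn2a-201: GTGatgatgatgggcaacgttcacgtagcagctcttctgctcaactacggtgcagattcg
Cdkn2a-202: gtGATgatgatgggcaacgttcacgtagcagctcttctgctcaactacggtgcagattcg
The letters are the same and the reading frame begins at base 1 in Cdkn2a-201 and at base 3 in Cdkn2a-202. A count per gene therefore adds both products together, and the values of Cdkn2a given here do not tell p16INK4a and p19ARF apart.

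The libraries held between 7040032 and 11696457 counts. The labels stood apart in composition: the share of mitochondrial genes was 13.0% to 14.4% in the WT-labelled libraries and 19.1% to 20.3% in the Dab2-cKO-labelled ones, the 100 most abundant genes took 33.1% to 33.9% against 44.5% to 46.6%, and the TMM factors were 1.11 to 1.21 against 0.847 to 0.876. Dab2, the targeted gene, went against the labels: it had 327 ± 15.4 normalized counts (mean ± SD, n = 3) in the WT-labelled libraries and 1375 ± 68.2 in the Dab2-cKO-labelled ones (log2 fold change 2.08, adjusted p = 3.04e-34), so every direction is given by label. The count over the whole gene also takes in exons outside the floxed part, and counts per exon were not examined. The cause of the higher Dab2 count was not tested. Cd34 (510.4 ± 53.2 against 1779.5 ± 35.6) and Itga6 (959.6 ± 41.5 against 1409 ± 47.8), the markers of the sort, were well above 0 in all libraries, and none of the 14 bulge markers was at 0 in any library. The bulge markers themselves differed between the labels, with 9 called higher, Nfatc1 (log2 fold change 1.32) among them, and 3 called lower, Sox9 (-1.45), Lhx2 (-1.43) and Lgr5 (-1.32), all 4 named after their values were seen. Markers of other cells differed as well. The summed normalized counts of 18 hair shaft, inner root sheath and matrix markers were 243244 to 291899 in the WT-labelled libraries and 3499 to 3573 in the Dab2-cKO-labelled ones, and all 18 were called lower. The sums of 7 fibroblast markers were 101858 to 123237 against 355925 to 375671, with all 7 called higher. The sums of 5 endothelial markers were 894 to 1077 against 3545 to 3591, with all 5 called higher, and those of 7 immune cell markers were 1707 to 1909 against 7570 to 7729, with 6 called higher. The sums of 7 markers of differentiated interfollicular epidermis were 12186 to 14117 against 46697 to 47475, with 6 called higher and 1 lower. Hair germ and anagen progenitor markers summed to 4402 to 5275 against 1186 to 1357, with 8 of 9 called lower, and melanocyte markers to 3243 to 3588 against 1099 to 1119, with 6 of 6 called lower. None of these markers was at 0 in any library, and their part in the results below was not tested. Whether the libraries of each label held only resting HFSCs was not tested either. In bulk RNA, fewer cells of a type and less RNA per cell cannot be told apart.

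Of the 6 CDK inhibitor genes with enough counts to be tested, Cdkn1c passed the test between the genotypes and the other 5 did not. The level of Cdkn1c in the Dab2-cKO-labelled libraries was 1.95 times that in the WT-labelled libraries. A gene was called where the quasi-likelihood test of edgeR gave a Benjamini-Hochberg adjusted p under 0.05 over all 32149 genes that passed the filter on low counts. Of those genes, 28.2% were called, 16.8% higher and 11.5% lower in the Dab2-cKO-labelled libraries. Of the inhibitor genes, 6 passed the filter, with 1 called higher and 0 called lower. At an unadjusted p under 0.05 edgeR gave 1 gene lower, Cdkn3, and DESeq2 gave 0, adjusted or not. The median log2 fold change of the 6 genes was -0.03, beside -0.02 over all genes tested. The number of inhibitor genes called lower depended on the scaling. It was 2 by upper-quartile scaling (Cdkn1b and Cdkn3) and 3 by library size alone (Cdkn1b, Cdkn2c and Cdkn3). These scalings moved the median of all genes to -0.17 and -0.45. Of all 32149 genes tested, 5561 and 11168 were called lower under them, against 3682 by TMM. When the 100 most abundant genes and the mitochondrial genes were kept out of the TMM factors, the calls were again 1 higher, Cdkn1c, and 0 lower, with Cdkn1c at 0.95 (adjusted p = 3.37e-05).

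**Figure D1:**
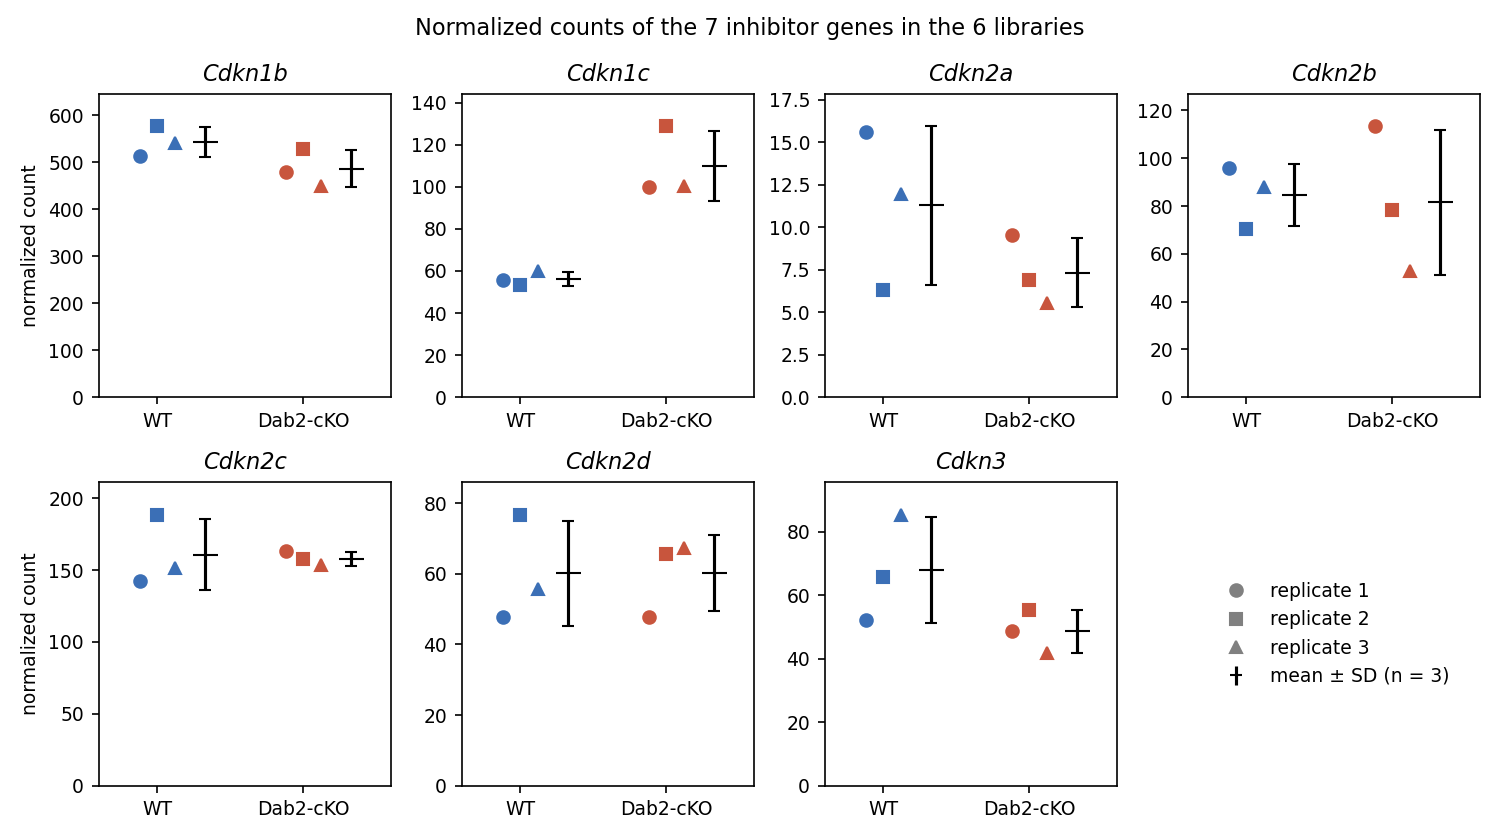
Normalized counts (y axis, linear, starting at 0) of the 7 inhibitor genes in each library by label (x axis), with 1 point per library, the marker shape giving the replicate number and the bar the mean ± SD (n = 3). Cdkn1c is the gene whose 3 Dab2-cKO-labelled libraries (100.1 to 129) all lie above the 3 WT-labelled ones (53.3 to 59.8), and the points of the other 6 genes overlap between the labels.

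Among the CIP/KIP genes, Cdkn1c (ENSMUSG00000037664, GRCm39 chr7:143012069-143014806, minus strand) encodes p57, an inhibitor expressed from the maternal allele that is known for its part in the cell cycle exit of differentiating cells and in stem cell quiescence. Its normalized counts were 55.7, 53.3 and 59.8 in WT replicates 1 to 3, against 100.1, 129 and 100.4 in Dab2-cKO replicates 1 to 3. The lowest Dab2-cKO-labelled library was thus above the highest WT-labelled one, with Dab2-cKO replicate 2 standing highest. The mean rose from 56.2 ± 3.31 to 109.8 ± 16.5 (log2 fold change 0.96, SE 0.19, adjusted p = 3.24e-05), and the 95% interval of the fold change was 1.49 to 2.54. Groups that did not overlap were common here, with 38.3% of all genes tested free of overlap and 20.6% so with the higher values in the Dab2-cKO-labelled libraries. A log2 fold change of at least that of Cdkn1c with a call of higher was found in 6.83% of all genes tested. The raw counts behind these values were 50, 59 and 70 against 105, 112 and 91. Of the exon bases of Cdkn1c, 29.0% lie opposite exons of the lncRNA gene Gm44732, which had 0 counts in all 6 libraries. Without the strand setting of the counting, these counts of 0 do not show how reads of such bases were treated. The fibroblast, endothelial and immune markers were higher in the same libraries as Cdkn1c, with 7 of 7, 5 of 5 and 6 of 7 called, and so were 6 of 7 markers of differentiated interfollicular epidermis. Their part in this difference was not tested.

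Cdkn1b (ENSMUSG00000003031, chr6:134897364-134902476, plus strand) encodes p27, which binds cyclin E-CDK2 and cyclin A-CDK2 and is held low in cycling cells largely by destruction of the protein. It had the most counts of the 7 genes, with 512, 577 and 541 normalized counts in the WT-labelled libraries and 479, 528 and 450.3 in the Dab2-cKO-labelled ones. The groups overlapped, as Dab2-cKO replicate 2 stood above WT replicate 1. The means were 543 ± 32.4 and 486 ± 39.4, a log2 fold change of -0.16 (SE 0.09, 95% interval -0.34 to 0.01, adjusted p = 0.175). The call was made in 4 of 13 alternatives: by upper-quartile scaling (-0.31, adjusted p = 0.00117), by library size alone (-0.59, adjusted p = 8.78e-10), with a mean count of at least 50 (-0.25, adjusted p = 0.00906) and without Dab2-cKO replicate 2 (-0.25, adjusted p = 0.0385). Relative to the median of all genes, the difference was -0.14 by TMM, by upper quartile and by library size.

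Cdkn1a, which encodes p21 and completes the CIP/KIP group, had 629 ± 56.9 and 574 ± 41.4 normalized counts (log2 fold change -0.13, adjusted p = 0.268), and it too was called lower by upper quartile (-0.28), by library size alone (-0.56) and under a filter at a mean count of 50 (-0.22). Within the CIP/KIP pair, the ratio of Cdkn1c to Cdkn1b does not depend on how libraries are scaled. On the log2 scale it was -3.19, -3.43 and -3.17 in the WT-labelled libraries and -2.25, -2.03 and -2.16 in the Dab2-cKO-labelled ones. The groups did not overlap, and the mean was higher by 1.11 in the Dab2-cKO-labelled libraries (exact 2-sided permutation test, p = 0.1, adjusted over 3 ratios 0.3). With 3 libraries against 3, 0.1 is the smallest p this test can give. Of all counts of the 7 genes in a library, Cdkn1b held 55.2% ± 0.627 against 51.1% ± 1.10 and Cdkn1c 5.73% ± 0.520 against 11.5% ± 1.11 (SD, n = 3).

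None of the 3 INK4 genes tested was called. Cdkn2c (ENSMUSG00000028551, chr4:109517957-109524386, minus strand), which encodes p18, had the most counts of them. It had 143, 189 and 151 normalized counts in the WT-labelled libraries and 163, 158 and 153 in the Dab2-cKO-labelled ones. The Dab2-cKO-labelled libraries lay close together, inside the range of the WT-labelled ones. The means were 161 ± 24.5 and 158 ± 4.84, with a log2 fold change of -0.03 (SE 0.14, 95% interval -0.31 to 0.25, adjusted p = 0.922). By library size alone it was called lower (-0.45, adjusted p = 0.00513), beside a median of -0.45 over all genes under that scaling.

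Cdkn2d (ENSMUSG00000096472, chr9:21199700-21202727, minus strand) encodes p19INK4d, which is not the p19ARF of Cdkn2a. It had 47.9, 76.7 and 55.5 normalized counts against 47.7, 65.6 and 67.3. Both groups spread over nearly the same range. The means were 60.1 ± 14.9 and 60.2 ± 10.9, with a log2 fold change of -0.01 (SE 0.23, adjusted p = 0.981), and the 95% interval of -0.47 to 0.44 leaves room for changes of either sign. The log2 ratio of Cdkn2d to Cdkn2c was -1.43 ± 0.13 and -1.40 ± 0.32, a difference of 0.03 (exact 2-sided permutation test, p = 0.9).

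Cdkn2b (ENSMUSG00000073802, chr4:89223204-89229276, minus strand) encodes p15, an inhibitor known as a target of TGF-β signaling, and lies next to Cdkn2a. It had 95.8, 70.4 and 88.0 normalized counts in the WT-labelled libraries and 113, 78.2 and 53.0 in the Dab2-cKO-labelled ones. The Dab2-cKO-labelled libraries held both the highest and the lowest value of the 6. The means were 84.7 ± 13.0 and 81.6 ± 30.4 (log2 fold change -0.04, SE 0.20, 95% interval -0.44 to 0.37, adjusted p = 0.932).

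Cdkn2a (ENSMUSG00000044303, chr4:89192708-89212890, minus strand), whose products p16INK4a and p19ARF mark senescent cells, had the fewest counts of the 7 genes and did not pass the filter on low counts. Its raw counts were 14, 7 and 14 in the WT-labelled libraries and 10, 6 and 5 in the Dab2-cKO-labelled ones. As normalized counts these were 15.6, 6.32 and 11.96 against 9.54, 6.90 and 5.52, with overlap between the groups and means of 11.3 ± 4.67 and 7.32 ± 2.04. In the 6 alternatives that kept the gene, its log2 fold change was -0.87 to -0.45 (adjusted p = 0.394 to 0.709) and no call was made, so a difference was not detectable at this depth. The log2 ratio of Cdkn2a to Cdkn2b was -2.93 ± 0.41 and -3.35 ± 0.19, a difference of -0.42 (exact 2-sided permutation test, p = 0.2, adjusted over 3 ratios 0.3).

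Cdkn3 (ENSMUSG00000037628, chr14:46997904-47015505, plus strand) shares the symbol but not the mechanism. Its product is a phosphatase that removes the activating phosphate of CDKs, and its transcript is known to peak with mitosis. It had 52.3, 65.9 and 85.4 normalized counts in the WT-labelled libraries and 48.6, 55.2 and 41.9 in the Dab2-cKO-labelled ones. The groups overlapped only in that Dab2-cKO replicate 2 stood above WT replicate 1. The means were 67.9 ± 16.6 and 48.6 ± 6.65, with a log2 fold change of -0.49 (SE 0.23, 95% interval -0.96 to -0.04, adjusted p = 0.107). It was called lower in 4 of 13 alternatives, by upper-quartile scaling (-0.64, adjusted p = 0.0282), by library size alone (-0.92, adjusted p = 0.000786), with a mean count of at least 50 (-0.58, adjusted p = 0.0300) and without WT replicate 1 (-0.64, adjusted p = 0.0457). Of its exon bases, 6.33% lie opposite exons of Cnih1, which had 168 ± 23.8 and 261 ± 17.4 normalized counts (log2 fold change 0.64, adjusted p = 1.77e-05), and without the strand setting of the counting the reads of such bases cannot be assigned to 1 of the 2 genes.

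The promoter of Cdkn3 is shown because it holds both CCAAT and the cell cycle homology letters, which are found in many promoters of mitotic genes. RefSeq promoters from 250 bases before to 50 bases after a gene start (GRCm38.p6) were found for 6 of the 7 genes, all but Cdkn1c, and were searched on both strands for CCAAT, for the cell cycle homology region (TTTGAA or TTCGAA) and for E2F sites (TTTCCCGC, TTTCGCGC, TTTGCCGC or TTTGGCGC). No word contains another, and no 2 matches shown overlap. The last 120 bases before the start of Cdkn3 (GRCm38.p6 chr14:46760421-46760540, plus strand) and before the distal start of Cdkn2a (chr4:89294620-89294739, minus strand) are given with the matches in capitals.
Cdkn3: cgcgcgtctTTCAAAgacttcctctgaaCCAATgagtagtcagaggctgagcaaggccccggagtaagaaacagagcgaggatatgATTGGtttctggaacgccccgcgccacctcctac
Cdkn2a distal start: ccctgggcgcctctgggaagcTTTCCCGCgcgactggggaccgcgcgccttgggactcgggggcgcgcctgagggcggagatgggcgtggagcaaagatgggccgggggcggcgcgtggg
Cdkn3 held the cell cycle homology letters 111 bases before the start, on the minus strand, and CCAAT 92 bases before it on the plus strand and 34 bases before it on the minus strand. Outside the bases shown, its window also held CCAAT 149 bases before and 9 bases after the start, both on the plus strand. Over 32817 promoters, 19.2% held the cell cycle homology letters and 37.4% held CCAAT. The distal Cdkn2a start held TTTCCCGC 99 bases before it, and 2.26% of the promoters held one of the E2F words. None of the other promoter windows of these genes held an E2F word, but the other words were not particular to Cdkn3: the cell cycle homology letters were also found in the window of Cdkn2b, and CCAAT in windows of Cdkn1b, Cdkn2a, Cdkn2c and Cdkn2d. A match describes the letters and is not evidence of binding.

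**Figure D2:**
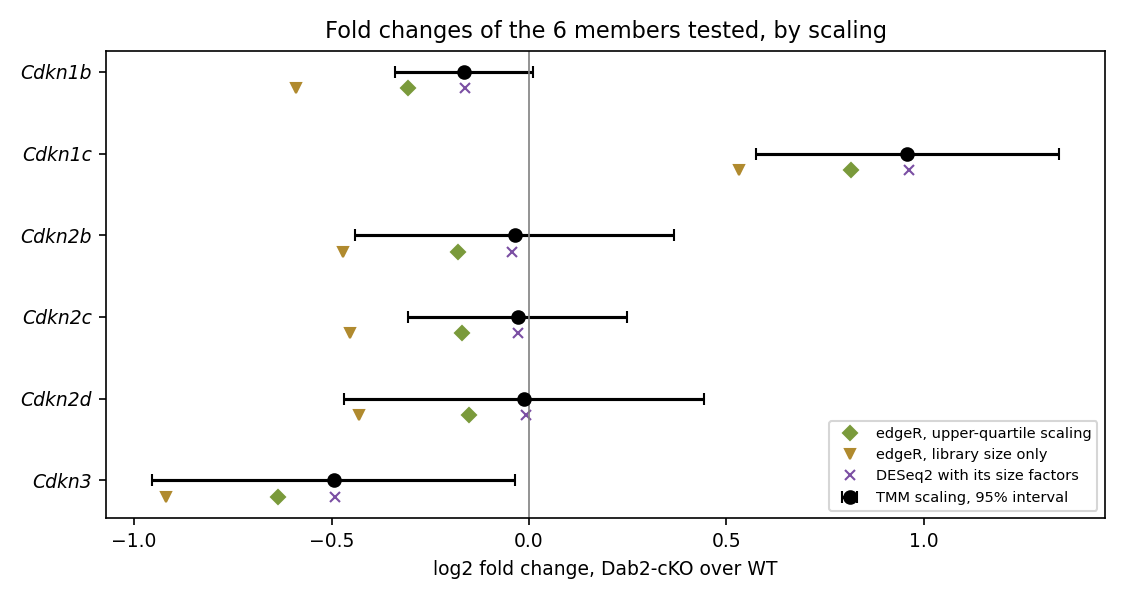
Log2 fold change (x axis, Dab2-cKO over WT) of the 6 inhibitor genes tested (y axis), with the black point and 95% interval from edgeR with TMM scaling and the other symbols from upper-quartile scaling, library size alone and DESeq2. Cdkn1c lies at 0.96 and stays above 0 under each scaling, while the other 5 genes lie between -0.49 and -0.01 by TMM and shift to the left by upper quartile and by library size.

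Normalized counts per kb of the canonical transcript allow the levels to be ordered between genes. In the WT-labelled libraries the order was Cdkn1b (119 ± 7.12 per kb), Cdkn3 (67.2 ± 16.5), Cdkn2c (59.6 ± 9.10), Cdkn2d (38.7 ± 9.63), Cdkn2b (31.1 ± 4.77), Cdkn1c (29.1 ± 1.72) and Cdkn2a (13.3 ± 5.48). The ranges of the 3 libraries overlapped between Cdkn3 and Cdkn2c, between Cdkn2d and Cdkn2b and between Cdkn2b and Cdkn1c, so these neighbours do not differ beyond their spread. In the Dab2-cKO-labelled libraries the order was Cdkn1b (107 ± 8.65 per kb), Cdkn2c (58.6 ± 1.80), Cdkn1c (56.9 ± 8.55), Cdkn3 (48.1 ± 6.57), Cdkn2d (38.8 ± 7.01), Cdkn2b (30.0 ± 11.2) and Cdkn2a (8.59 ± 2.40). By this length Cdkn1c moved from rank 6 to rank 3, and its range in the Dab2-cKO-labelled libraries overlapped those of Cdkn2c and Cdkn3. The order depends on the length used: per kb of all annotated exons Cdkn3, with 30 transcripts, was last in the WT-labelled libraries at 8.63. By that length Cdkn1c was at rank 4 in the WT-labelled libraries (26.1 per kb). In the Dab2-cKO-labelled ones it had 51.0 per kb, with only Cdkn1b (107) above it. As a gauge of the floor, the 95th percentile of 1970 olfactory, vomeronasal and trace amine receptor genes, known from the chemosensory organs, was 16.1 per kb in the WT-labelled libraries and 15.3 in the Dab2-cKO-labelled ones. By canonical length, Cdkn2a lay below it in both, and the other 6 genes lay above it.

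Many of the genes that the inhibitors act on were called lower. For this and the lists below, the share over all genes tested was 11.5% called lower and 16.8% called higher. By library size alone, 11168 of all 32149 genes tested were called lower and 2686 higher. Of the 5 genes of the D-type cyclins with CDK4 and CDK6, the direct partners of INK4 proteins, 3 fell, 1 rose and 1 did not pass the test (median log2 fold change -0.62), and by library size alone 4 fell and none rose (median -1.04). Cdk4 fell from 562 ± 12.2 to 306 ± 36.6 normalized counts (log2 fold change -0.88, adjusted p = 2.48e-12), Ccnd1 from 625 ± 60.4 to 346 ± 27.4 (-0.86) and Ccnd2 from 2868 ± 133 to 1872 ± 36.0 (-0.62). Ccnd3, named after its values were seen, rose from 210.5 ± 19.1 to 331 ± 10.9 (0.65), a call that was lost by library size alone. Cdk6 had 446 ± 20.1 and 496 ± 24.4 (0.15, adjusted p = 0.227), a difference that turned to -0.27 by library size alone (adjusted p = 0.00430). The 7 genes of cyclins E, A and B with CDK2 and CDK1, the partners of p27 and p57, all fell (median -1.21), and the largest change in that list was Ccnb2, a mitotic cyclin, from 170.1 ± 17.2 to 50.7 ± 5.04 (-1.74, adjusted p = 1.19e-13). By upper quartile and by library size all 7 were again called lower, and by DESeq2 6 were.

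Downstream of these kinases, 7 of 13 genes of pocket proteins, E2F and DP factors fell, 1 rose and 5 did not pass (median -0.41), with 11 lower and none higher by library size alone. E2f2, an activator of S phase genes, fell from 369 ± 60.3 to 96.3 ± 4.19 (-1.94, adjusted p = 2.21e-21). All 27 genes of mitosis and replication fell (median -1.35), as they did by upper quartile and by library size, and DESeq2 called 26 of them lower, with Ccnb1 in both this list and that of cyclins E, A and B. Mki67, the gene of the proliferation marker Ki67, fell from 6162 ± 346 to 1413 ± 55.4 (-2.12, adjusted p = 1.98e-37). The hair shaft and matrix markers fell in the same libraries, from sums of 243244 to 291899 to sums of 3499 to 3573, as did 8 of 9 hair germ and 6 of 6 melanocyte markers, and their part in these differences was not tested.

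**Figure D3:**
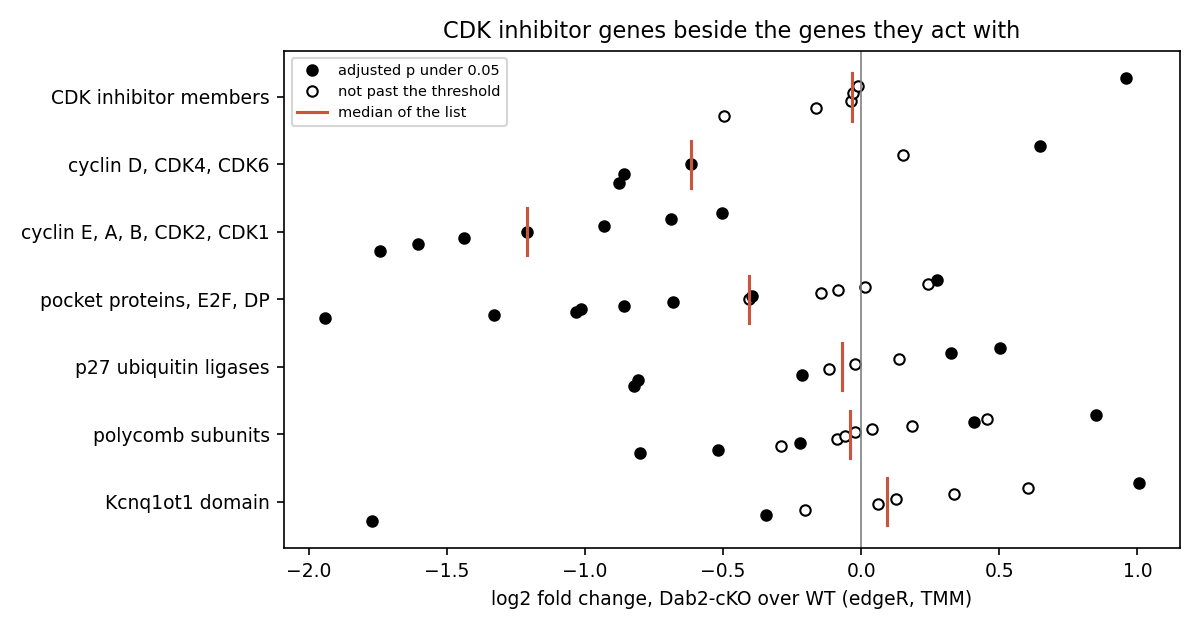
Log2 fold change (x axis, Dab2-cKO over WT, edgeR with TMM) of the inhibitor genes and of the lists of genes that act with them (y axis), with 1 point per gene, filled where the adjusted p was under 0.05, and the red line at the median of the list. The medians are -0.03 for the inhibitors, -0.62 for the D-type cyclins with CDK4 and CDK6 and -1.21 for cyclins E, A and B with CDK2 and CDK1.

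Set beside their kinases within each library, most of the inhibitor transcripts had higher ratios in the Dab2-cKO-labelled libraries. The kinase genes Cdk4 (log2 fold change -0.88) and Cdk1 (-1.21) were themselves lower there. A gene with an unchanged level would thus also have a higher ratio to them. The log2 fold changes of Cdkn2b, Cdkn2c and Cdkn2d were only -0.04, -0.03 and -0.01. These ratios of raw counts need no scaling between libraries but were chosen after the values were seen, so they are given as a description, without a test. Cdkn1b had 0.933, 1.03 and 0.943 counts per count of Cdk4 in the WT-labelled libraries and 1.81, 1.65 and 1.35 in the Dab2-cKO-labelled ones. The ratio of Cdkn1c to Cdk4 was 0.1001 ± 0.00493 and 0.360 ± 0.0534, that of Cdkn2c to Cdk4 was 0.286 ± 0.0426 and 0.522 ± 0.0822, and that of Cdkn2d to Cdk4 was 0.107 ± 0.0261 and 0.195 ± 0.0136. None of these ratios overlapped between the labels. For these and the ratios below, the share of all genes without overlap was not computed. The separation is therefore not read as a trait of the inhibitor genes. For normalized counts, with no such denominator, 38.3% of all genes tested were free of overlap. The ratio of Cdkn2b to Cdk4 did overlap, at 0.151 ± 0.0247 and 0.277 ± 0.138. Cdkn1b per count of Ccna2, the cyclin of S phase, went from 1.35 ± 0.110 to 3.65 ± 0.0882 without overlap, while Ccna2 itself was lower (-1.60). Per count of Cdk2 the difference was smaller, from 2.28 ± 0.280 to 2.85 ± 0.236, also without overlap. Cdkn3, whose own level was lower though not called, had 0.241 ± 0.0428 counts per count of Cdk1, which its product dephosphorylates, against 0.403 ± 0.0549, again without overlap.

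**Figure D4:**
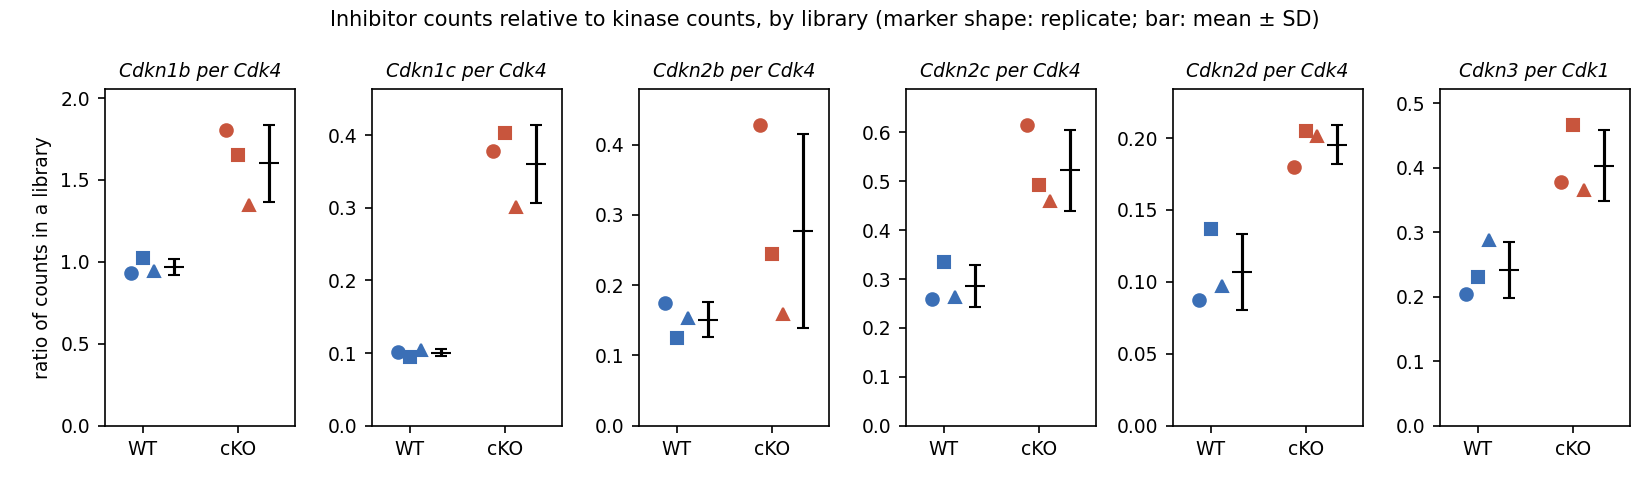
Ratio of raw counts of an inhibitor gene to those of a kinase gene in each library (y axis, linear, starting at 0) by label (x axis), with 1 point per library and the bar the mean ± SD (n = 3). Each ratio but that of Cdkn2b to Cdk4 is higher in all 3 Dab2-cKO-labelled libraries, and Cdkn1c per Cdk4 goes from 0.1001 to 0.360. Cdk4 and Cdk1 were themselves lower in those libraries, which raises the ratio of any gene with an unchanged level.

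Genes that set the level of p27 protein were called in both directions, as were all genes tested (11.5% lower and 16.8% higher). Of 8 ubiquitin ligase subunits that act on p27, 3 fell, 2 rose and 3 did not pass (median -0.07), and by library size alone 6 fell and none rose. Skp2, the subunit that recognises p27 in cycling cells, fell from 237 ± 9.47 to 133 ± 25.9 (-0.82, adjusted p = 4.60e-07), and its cofactor Cks1b, named after its values were seen, fell from 100.5 ± 12.8 to 57.0 ± 16.7 (-0.81). The ratio of Cdkn1b to Skp2 counts was 2.30 ± 0.126 in the WT-labelled libraries and 3.72 ± 0.616 in the Dab2-cKO-labelled ones, without overlap. The lower level of Skp2 raises this ratio for any gene with an unchanged level. The share of all genes without overlap was not computed for it. The level of the protein itself was not measured.

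Of 12 genes of transcription factors and chromatin factors known to act on CDK inhibitor genes, 4 fell, 2 rose and 6 did not pass (median -0.17). By library size alone 10 fell and 1 rose. Beside these and the 2 lists that follow, 11.5% of all genes tested were called lower and 16.8% higher by TMM. Ets1, a factor that can activate Cdkn2a, rose from 240.8 ± 6.50 to 609.5 ± 23.6 (1.34, adjusted p = 2.90e-20). Named after their values were seen, the genes that fell were Foxo1 (-0.40), Foxo3 (-0.53), Smad2 (-0.37) and Kdm6b (-0.42), and Foxo4 rose (0.43). FOXO factors are known to activate Cdkn1b, and the Foxo genes of this list thus moved in both directions. Of 12 polycomb subunits, which repress the locus of Cdkn2a and Cdkn2b, 3 fell, 2 rose and 7 did not pass (median -0.04), with 8 lower and 1 higher by library size alone. Cbx7, a subunit known to repress Cdkn2a, rose from 99.0 ± 22.2 to 178 ± 27.1 (0.85, adjusted p = 6.23e-06). Bmi1, another repressor of that locus, rose from 258 ± 18.4 to 343 ± 11.3 (0.41, adjusted p = 0.00137), but its difference turned to -0.018 by library size alone (adjusted p = 0.902). Of 3 partners of p19ARF, 1 fell, 1 rose and 1 did not pass. Npm1, whose product binds p19ARF in the nucleolus, fell from 2868 ± 164 to 2024 ± 98.1 (-0.50, adjusted p = 8.94e-09). Mdm2, named after its values were seen, rose (0.33, adjusted p = 0.00194), with a difference of -0.10 by library size alone.

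Cdkn1c lies in an imprinted domain that the noncoding RNA Kcnq1ot1 silences on the paternal chromosome. Kcnq1ot1 fell from 2231 ± 43.8 to 1756 ± 23.1 normalized counts (-0.35, adjusted p = 2.92e-05). Of 8 other genes of the domain, Kcnq1ot1 included, 2 fell, 1 rose and 5 did not pass (median 0.09), with the median at -0.05 by upper quartile and -0.33 by library size. Cd81, a membrane protein gene of the domain, rose from 351 ± 50.4 to 708 ± 53.6 (1.01, adjusted p = 2.63e-15), a difference close to that of Cdkn1c, and Phlda2, named after its values were seen, fell from 21.8 ± 9.76 to 6.35 ± 3.67 (-1.77, adjusted p = 0.00405). The neighbours of Cdkn1c thus did not share 1 direction. Over all genes tested, 28.2% were called, and 6.83% were called higher with a change at least that of Cdkn1c. Phlda2 rests on raw counts of 2 to 36 a library.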

How the data were processed

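Total RNA of FACS sorted HFSCs was sequenced with a SMARTer Stranded total RNA kit. The authors trimmed reads with fastp 0.23.4, aligned them to GRCm39 with HISAT2 2.2.1 and counted them per gene with featureCounts 2.0.6, by the paper and the submitters' processing notes. The deposited table holds raw counts without normalization. The strand setting, treatment of multimapping reads, molecular identifiers and annotation release are not given in the sources used here. A second deposited table holds the authors' DESeq2 fold changes, p-values and scaled counts and was not used. The columns named FL-FL were assigned to Dab2-cKO through the series title, although both genotypes are floxed, and every direction depends on this.

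Genes were filtered by the expression filter of edgeR 4.0.16 (R 4.3.3), scaled by TMM and tested between the genotypes by quasi-likelihood with robust dispersions and Benjamini-Hochberg adjustment over 32149 genes. For normalized counts, each count was divided by the library's effective size and multiplied by the mean effective size. Ratios used a pseudocount of 0.5 and an exact permutation test in SciPy 1.17.1. The script was tested on simulated data. Depth was 7040032 to 11696457 counts per library, which limits the precision of genes with few counts. Coordinates and lengths came from the GENCODE annotation of GRCm39 and promoters from RefSeq (GRCm38.p6).

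The genes and lists were chosen with earlier results of these data known. Named were all 7 genes, Dab2, Ccnd1, Ccnd2, Cdk4, Cdk6, Skp2, Mki67, Kcnq1ot1, Bmi1, and of each pathway list the called gene of at least 100 mean normalized counts with the largest change. For each gene tested, the 3 protein-coding genes most like it were named. Skp1 and Krt85 were not matched by symbol and not analysed here. Alternatives were DESeq2 1.42.0, upper-quartile scaling, library size alone, TMM without mitochondrial and the 100 most abundant genes, a replicate block, no filter, a filter at a mean count of 50, each library left out and, for ratios, other pseudocounts.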

Additional observations from a re-analysis of the deposited data

How the results depend on the processing

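Cdkn1c was called higher under all 13 alternatives, with a log2 fold change of 0.53 to 1.02 and an adjusted p of 2.43e-05 to 0.0247. It stood 0.98 above the median of all genes by TMM, by upper quartile and by library size. The number of inhibitor genes called lower, 0 by TMM, was 2 by upper-quartile scaling, 3 by library size, 2 with a filter at a mean count of 50, and 0 to 1 with each library left out. Over all 32149 genes tested, 3682 were called lower and 5387 higher, against 5561 lower by upper quartile, and 11168 lower and 2686 higher by library size. The share of calls that were lower thus went from 40.6% to 56.5% and 80.6%. With the filter at a mean count of 50, 4062 of 14801 genes were called lower. With each library left out, the sign turned for the log2 fold changes of Cdkn2b (-0.38 to 0.17), Cdkn2c (-0.10 to 0.11) and Cdkn2d (-0.14 to 0.21), and for the log2 ratio of Cdkn2d to Cdkn2c (-0.080 to 0.21). By library size Cdk6 (-0.27) and Bmi1 (-0.018) turned, as did further genes of the lists. Among those were Rbl2 (-0.16), Cul4a (-0.10), Mdm2 (-0.10) and Tcf7l1 (-0.055), which were called higher by TMM. The cause was not tested.

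The labels give the replicate numbers 1 to 3 in both groups, but deviations from the group means correlated by 0.07, -0.01 and 0.06 between libraries of the same number, so the numbers were not taken as pairs. With the replicate block Cdkn1c was at 0.96 (adjusted p = 5.39e-05), Cdkn2d turned to 0.013 (adjusted p = 0.979), and no call of an inhibitor gene changed. Depth limits Cdkn2a, at 5 to 14 counts a library.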

Other observations

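Across the 6 libraries, the genes whose levels were most like those of an inhibitor gene were sought among 10353 protein-coding genes by Pearson's r of log2(normalized count + 1), as a description over points that share the genotype difference. For Cdkn1c these were Mlxipl (r = 0.9997), a glucose-responsive transcription factor gene, Akap1 (0.9975), which encodes an anchor of protein kinase A at mitochondria, and Clec14a (0.9967), an endothelial gene, and 2694 genes reached 0.9. The log2 fold changes were 1.18, 0.27 and 1.54 for these 3 genes. For the other genes tested, none of which was called between the labels, far fewer reached 0.9. Over 2 groups of libraries r rises with the gap between the groups, so these numbers restate the calls. They were 172 for Cdkn1b, led by Cdc42ep1 (0.9933), Cbr4 (0.9897) and Slc41a1 (0.9837), and 80 for Cdkn3, led by Hnrnpul1 (0.9853), Rai1 (0.9846) and Madd (0.9827). For the INK4 genes the numbers were 48 for Cdkn2c, led by Mcur1 (0.9903), Nid2 (0.9888) and Erf (0.9824), 35 for Cdkn2d, led by Nr2c1 (0.9807), Rab3gap2 (0.9801) and Rnf19a (0.9638), and 13 for Cdkn2b, led by Prdm9 (0.9819), Pik3c2b (0.9795) and Smg6 (0.9749).

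The inhibitor genes also differed in how they varied with one another over the 6 libraries. Cdkn1b and Cdkn3 had r = 0.80, Cdkn2c and Cdkn2d 0.64, and Cdkn2b and Cdkn2d -0.81, whereas Cdkn1c had values between -0.57 and 0.05 with the other 5 genes tested. With 6 points these values are a description only.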
